A study of Mus musculus with 6 samples.

Results

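The LIM homeobox factors measured here were Lmx1a, Lmx1b, Lhx1, Lhx2, Lhx4, Lhx6, Lhx8, Lhx9, Isl1 and Isl2. Their members were taken as all probes that carry one of these 10 gene names in the array design, which gave 16 probes of 55681. Of these genes, 6 had 1 probe and 4 had several. The genes were chosen by name with their log2 differences between the sorted populations and their marks above background already known, so their own differences are given as a description, without a test.

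RNA was obtained from prostates of 6-day-old (P6) male FVB/N mice that carry the Tg 11.5kb-GFP transgene, in which the s-SHIP promoter drives GFP. Both populations were Lin- Sca-1+ CD49f+ (LSC), meaning free of the erythroid, endothelial and leukocyte surface markers and positive for the basal and stem cell markers Sca-1 and CD49f, and were sorted by GFP into LSC GFP+ and LSC GFP- cells. No mouse received a treatment and no wild-type or untransgenic cells were on the arrays, and the same promoter is also active in vascular smooth muscle of this tissue. Per population, 3 independent samples were hybridized, each to 1 array with a single colour, and the number of animals behind a sample is not given in the sources used here.

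LIM-homeodomain proteins are transcription factors with a pair of zinc-binding LIM domains, which bind partner proteins, and a homeodomain, which binds DNA. They act in complexes held together by the adaptor proteins Ldb1 and Ldb2, and LIM-only (Lmo) proteins compete for the same adaptors. The family is best known for setting the identity of neurons and for building limb, kidney, gonad, pituitary and pancreas, and mesenchyme of several organs expresses some of its members.

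Values are log2 signals relative to the 75th percentile of the same array, so that 0 is the level of a probe at that percentile. Whether a probe lay well above background on an array is the mark that Feature Extraction, the scanner's image software, set. Signals of different probes are not comparable as RNA amounts, and each probe is compared between arrays only. The probes whose sequence bears on the results are printed first. They are 60 bases long, and of probes that may lie in untranslated sequence only the stretch from base 31 to 60 is shown. Capitals mark an uninterrupted alternation of A and C of at least 10 bases.

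The Lmx1a probe (A_55_P2146314) and both Lmx1b probes (A_55_P2146297 and A_55_P2146295) carry no such run, nor do those of Isl1 (A_52_P337246) and Isl2 (A_55_P2016262).
Lmx1a: tgacataccgagatgaaattaaaagcctct
Lmx1b, A_55_P2146297: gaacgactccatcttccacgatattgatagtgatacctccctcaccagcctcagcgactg
Lmx1b, A_55_P2146295: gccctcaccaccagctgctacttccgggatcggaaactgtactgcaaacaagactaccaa
Isl1: aatgactgttttcgctctttctggaaataa
Isl2: attttgatcttaataaaacacaacccgatg

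The 3 Lhx6 probes are shown because they gave unlike results, and the shown stretch of the first consists of the alternation almost entirely.
Lhx6, A_55_P2005903: aACACACACACACACACACACACACACACA
Lhx6, A_55_P2094158: gagtagaagtgccggcacttaaacccagaa
Lhx6, A_55_P2094149: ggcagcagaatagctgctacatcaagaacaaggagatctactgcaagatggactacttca

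In the positions of mouse build mm9 that the array design gives, the Lmx1a probe covers chr1:169778804-169778863 on the plus strand. The Lmx1b probes cover chr2:33420253-33420312 and chr2:33495011-33495070 on the minus strand. The Lhx6 probes, also on the minus strand, cover chr2:35937644-35937703, chr2:35937470-35937529 and chr2:35958379-35958438 in the order printed. The Isl1 probe covers chr13:117088774-117088833 on the minus strand and the Isl2 probe chr9:55393925-55393984 on the plus strand. Exons and untranslated regions of mm9 were not used here.

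Of the 16 probes, 6 were well above background on all 6 arrays, 5 on none and 2 on 1 array. The filter used for the whole table asked that a probe be above background in 1 population or both on each of its 3 arrays, and it was passed by 9 probes from 7 genes. The other 7 probes include all those of Lhx4, Lhx8 and Lhx9. Without overlap, 3 probes separated the populations. LSC GFP+ was below LSC GFP- for Lmx1a and for 1 Lhx6 probe, and above it for Isl2. Over every probe of the array, 10.3% separated the populations in this way, and over the 37005 probes that passed the filter 12.3% did, 5.66% with LSC GFP+ below and 6.61% with it above. Of the 3 probes, those of Lmx1a and Lhx6 passed the filter through LSC GFP- only, with 1 and 2 LSC GFP+ arrays above background. Of all probes that passed the filter, 7.9% were called at an unadjusted p under 0.05 in limma, 3.38% higher and 4.53% lower. After adjustment 0.0027% were called. No count of calls is given for the members, and nothing is read from their separation, because the contrast chose the genes. Without LSC GFP+ replicate 1, 7 member probes separated the populations, and without LSC GFP- replicate 2 or replicate 3, 5 did. With 1 array fewer, any probe separates the populations more easily. The share over all probes is not given for these settings, so nothing is read from these counts either.

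**Figure D1:**
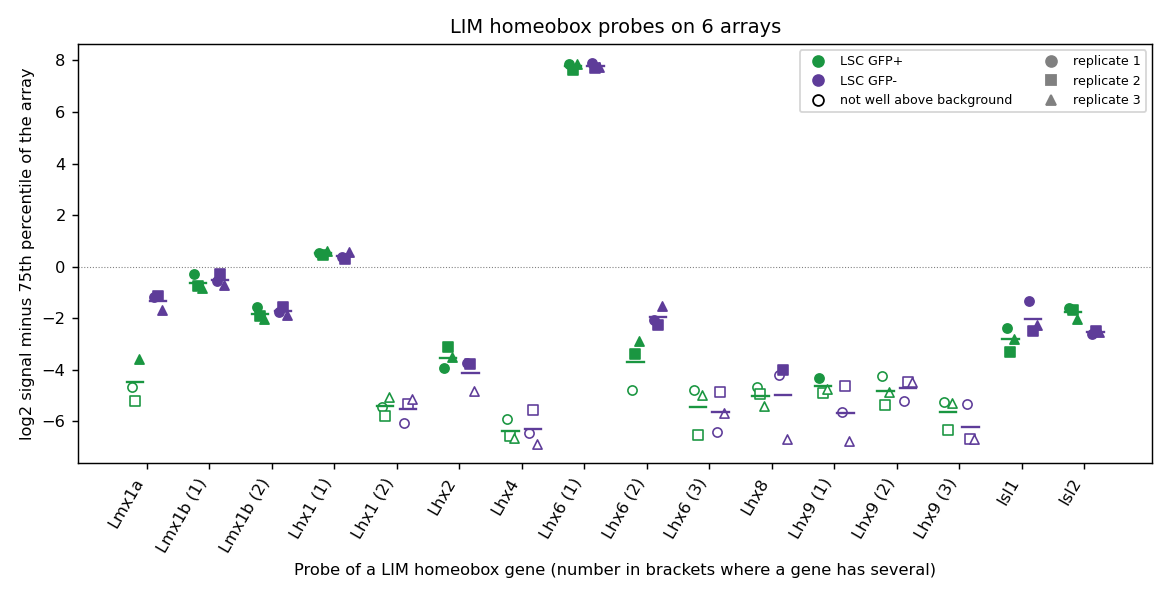
Log2 signal minus the 75th percentile of the array (vertical axis) for the 16 probes of the 10 genes (horizontal axis), with 1 symbol per array, LSC GFP+ in green and LSC GFP- in purple, and short lines for the means of 3 arrays. Open symbols are not well above background. Lmx1a, Lhx6 (2) and Isl2 show no overlap of the populations, while Lmx1b, Lhx1 and the brightest Lhx6 probe lie at the same height in both.

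Lmx1a was near background in LSC GFP+ cells and well above it on every LSC GFP- array. Lmx1a specifies midbrain dopaminergic neurons and the roof plate of the neural tube, and also acts in the inner ear. Its log2 signals were -4.69, -5.23 and -3.58 in LSC GFP+ replicates 1, 2 and 3 and -1.17, -1.16 and -1.68 in LSC GFP-. On the linear scale, the processed signals were 15.4, 13.2 and 34.6 against 177, 182 and 131. LSC GFP+ replicate 3 was the only array of its population on which Lmx1a was well above background, and all 3 LSC GFP- arrays exceeded it. The mean was -4.50 ± 0.84 (SD, n = 3) in LSC GFP+ and -1.34 ± 0.30 (SD, n = 3) in LSC GFP-, a difference of -3.16 (SE 0.52), or 8.93-fold. The size of this difference rests on how background is treated: with normexp correction and an offset of 50 it was -1.36. Leaving out 1 array at a time gave between -3.62 and -2.79.

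Markers of stroma and smooth muscle were lower in the same LSC GFP+ samples. Of 5 smooth muscle markers, 5 were lower at an unadjusted p under 0.05 in limma, and their summed linear level, relative to the 75th percentile, was 5.93 to 9.54 in LSC GFP+ and 18.5 to 35.7 in LSC GFP-. Of 7 stromal markers, 5 were lower and 1, Dcn, was higher, with sums of 18.6 to 24.9 against 20.9 to 58.9. No marker of either list was at background on all arrays. By the study's description, stromal cells lie outside the CD49f+ gate and vascular smooth muscle cells carry little Sca-1 or CD49f, so the sort should remove most of both. The basal markers Krt5, Krt14 and Krt15 were higher in LSC GFP+ at the same threshold, with the list of 4 (with Trp63) summing to 203 to 225 against 152 to 166. Trp63, the brightest of the 4 on every array, weighs most in the sum. Its populations overlapped, with a difference of 0.11 and an unadjusted p of 0.577 in limma. The part of these cell types in the Lmx1a difference was not tested, and in bulk RNA fewer cells of a type cannot be told apart from less RNA per cell.

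The pattern of Lmx1a was compared with those of 14066 named genes, each at its brightest probe that passed the filter. The 5 most like it were Hspb6, Wnt2b, Kel, Prkce and Tpst2, with Pearson r between 0.984 and 0.991 over 6 arrays. Kel was -4.90, -5.28 and -4.63 in LSC GFP+, under the lowest signal well above background on each of those arrays. All 5 were lower on every LSC GFP+ array than on any LSC GFP- array, with log2 differences between -0.90 and -0.43. The correlation is a description, since the 6 points fall into the 2 populations and a gene that separates them scores high.

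Lmx1b, the closest relative of Lmx1a, lay at similar levels in both populations. Lmx1b patterns dorsal limb mesenchyme, glomerular podocytes and serotonergic neurons. The probe A_55_P2146297 gave -0.29, -0.75 and -0.82 in LSC GFP+ and -0.58, -0.27 and -0.73 in LSC GFP-. The probe A_55_P2146295 gave -1.57, -1.91 and -2.05 against -1.76, -1.55 and -1.89. Both were well above background on all 6 arrays and their populations overlapped. The differences were -0.09 (SE 0.21) and -0.11 (SE 0.17), so the probes agree within their errors. The genes most like Lmx1b were Angptl4, Cpne2, D17Zt10e, Rac2 and Pnpla1, with r between 0.989 and 0.996 over a range of 0.55 on the log2 scale.

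Lhx1, which is needed for the Wolffian and Müllerian ducts, the kidney and the head, gave -6.08 to -5.05 at the probe A_52_P652336, which was above background on none of the arrays. Its other probe (A_55_P2231244), placed by the design at chr11:84335442-84335594 on the minus strand, gave 0.52, 0.44 and 0.60 in LSC GFP+ and 0.36, 0.31 and 0.55 in LSC GFP-. The populations overlapped at both probes and the difference at the second was 0.11 (SE 0.09). Its 5 most similar genes were Mlf1ip, Mnd1, Fdx1l, Rpl5 and Tomm20, with r between 0.992 and 0.995. Lhx5, the partner of Lhx1 in its subgroup, is not a member and was not above background on any array.

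Lhx2, a factor of eye, forebrain, hair follicle and limb, was near the background limit. Its signals were -3.94, -3.13 and -3.53 in LSC GFP+ and -3.73, -3.79 and -4.84 in LSC GFP-, and the last array alone was not well above background. The populations overlapped and the difference was 0.58 (SE 0.43). Lhx9, its relative with a role in the gonad, was above background at 1 of its 3 probes and on 1 array, LSC GFP+ replicate 1, at -4.31. The differences of the 3 Lhx9 probes were -0.09, 1.02 and 0.60, with standard errors of 0.40, 0.64 and 0.58, and are differences between signals close to background.

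Lhx4, a pituitary and motor neuron factor, was not above background on any array, with signals from -6.89 to -5.59. Its relative Lhx3, not a member, was above background on 1 array of each population. Lhx8, which acts in cholinergic neurons, teeth and oocytes, was above background only in LSC GFP- replicate 2, at -4.01, while its other 5 signals lay between -6.71 and -4.22.

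Lhx6, which guides cortical interneurons and acts in craniofacial mesenchyme, gave a different answer at each probe. The probe A_55_P2005903 gave 7.85, 7.63 and 7.88 in LSC GFP+ and 7.90, 7.70 and 7.74 in LSC GFP-, on the linear scale 84681 to 98283. The populations overlapped, with a difference of 0.01 (SE 0.10). The probe A_55_P2094158, which by its design position lies 114 bases from the first, gave -4.79, -3.39 and -2.89 against -2.06, -2.25 and -1.52. It was well above background on 2 LSC GFP+ and 3 LSC GFP- arrays, the populations did not overlap, and the difference was -1.74 (SE 0.61), or 3.35-fold. The third probe (A_55_P2094149) was above background on no array. The mean of the 3 differences was -0.51, so any single value for Lhx6 depends on the probe.

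The first Lhx6 probe belongs to a class of probes that are bright on every array. Its run of 29 alternating A and C bases is printed in capitals above, and the longest such run of A and C or of T and G in any other member probe was 6. Over the 55580 probes of the array with a longest A and C run under 10 bases, the median signal was -2.52. It was 1.07 over 66 probes with a run of 10 to 15, 6.31 over 11 probes with 16 to 19, 7.80 over 13 with 20 to 23 and 7.85 over 6 with 24 to 29. Over the 11 probes with a run of 24 bases or more, the largest difference between the populations in either direction was 0.09. For the alternation of T and G the median reached 9.42 over 25 probes with a run of 30 or more. These levels are given as a property of the probes. What RNA, if any, of Lhx6 the first probe measured was not tested.

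**Figure D2:**
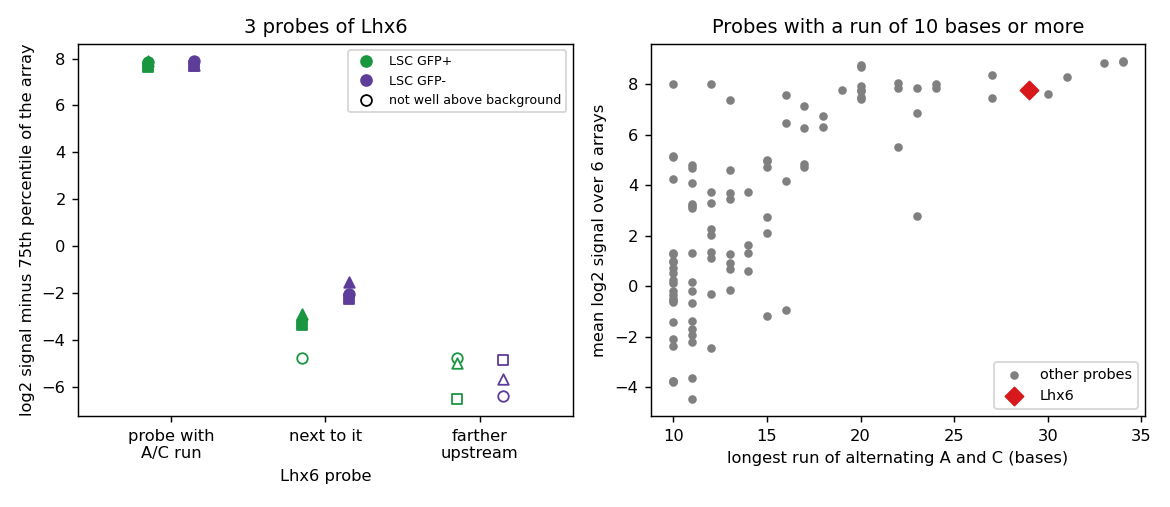
Left: log2 signal minus the 75th percentile of the array for the 3 Lhx6 probes, with 1 symbol per array, LSC GFP+ in green, LSC GFP- in purple and open symbols not well above background. Right: mean log2 signal over 6 arrays against the longest run of alternating A and C in bases, for all probes with a run of 10 or more, with 1 point per probe. The Lhx6 probe (red) has a run of 29 and sits among the other long-run probes.

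The summed level of 5 seminal vesicle markers was 1.16, 4.33 and 5.71 in LSC GFP+ and 4.18, 8.94 and 11.2 in LSC GFP-. The second Lhx6 probe shared its order of arrays in LSC GFP+ but not in LSC GFP-, where the probe was lowest in replicate 2 and the sum in replicate 1. The sum was lower in LSC GFP- replicate 1 than in LSC GFP+ replicates 2 and 3, and the Lhx6 signal was higher. Svs4 was the brightest of the 5 on every array, so it weighs most in the sum. Svs5 separated the populations, as the Lhx6 probe did, at -5.09, -3.49 and -3.64 in LSC GFP+ and -2.34, -1.86 and -1.54 in LSC GFP-. The other markers overlapped. Of these markers, 1 (Svs5) was lower in LSC GFP+ at an unadjusted p under 0.05 in limma, and 4 of the 5 could be tested. With the replicate block all 4 were lower, while 14.8% of all probes passed the same threshold in that fit and 0 passed after adjustment. The genes most like the probe over the 6 arrays, chosen after its values were seen, were Gbp6, Sfrp1, Chst9, Akr1b8 and Ccdc80, with r between 0.992 and 0.995. Chst9 was near background in LSC GFP+, at -6.38, -5.03 and -4.47. All 5 separated the populations, with LSC GFP+ below, which a choice by likeness to a probe that separates them favours. The part of other cells in the Lhx6 values was not tested.

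Isl1, a factor of motor, sensory and sympathetic neurons, pancreatic islets and heart progenitors, was above background on all 6 arrays. It is measured by 10 spots per array, and the SD between spots was 0.08 to 0.22. The signals were -2.37, -3.30 and -2.81 in LSC GFP+ and -1.33, -2.50 and -2.26 in LSC GFP-. The populations overlapped, and the difference was -0.80 (SE 0.45). Between samples of the same replicate number, which were taken as pairs, LSC GFP+ minus LSC GFP- was -1.04, -0.80 and -0.55, so LSC GFP+ was the lower in 3 of 3 pairs. In both populations replicate 1 was the highest and replicate 2 the lowest.

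Of 7 neuron markers, 5 had the same order of arrays as Isl1, highest in replicate 1 and lowest in replicate 2 of each population. Among them were Tubb3 (a neuronal tubulin), Prph (peripherin of peripheral neurons), and Stmn2 and Gap43 (growth cone proteins). The share of all probes with this order is not given, and samples of the same replicate number deviated together across probes. Stmn2 was 0.27, -6.29 and -1.03 in LSC GFP+ and 2.80, -2.03 and 0.08 in LSC GFP-. The exceptions were Dbh and Elavl4, and of 5 glial markers 1, S100b, had this order. The brightest Elavl4 probe itself holds a run of 11 alternating T and G bases, in capitals below, and its signals spanned only 0.87.
Elavl4, bases 25 to 54: ttctgtTGTGTGTGTGTatgtgtacatata

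Without probes that hold such runs, the 7 neuron markers summed to 1.28 to 11.6 in LSC GFP+ and 3.00 to 50.1 in LSC GFP-, and 1 was at background on all arrays. Of the 6 neuron markers tested, 0 passed an unadjusted p under 0.05 between the populations in limma without pairing. With the replicate number as a block 4 did, all lower in LSC GFP+ in 3 of 3 pairs, while 14.8% of all probes passed in that fit. The differences within pairs were -1.77, -1.05 and -1.08 for Tubb3, -2.80, -2.73 and -1.04 for Prph, -2.53, -4.26 and -1.11 for Stmn2, and -2.63, -2.63 and -1.26 for Gap43. Their adjusted p in the blocked limma fit lay between 0.082 and 0.155. Of other marker lists, 3 of 4 neuroendocrine markers (Syp, Chga and Chgb) and 1 of 2 glial markers tested (Sox10) were lower with the block and 0 of either without it. The 5 genes most like Isl1 were Stfa2, Kif1a, Scg5, Gfra2 and Syn2, with r between 0.985 and 0.990 over the 6 arrays. Kif1a, a motor of axonal transport, was -1.12, -2.71 and -1.70 against 0.97, -1.25 and -1.23. The part of neurons in the Isl1 signal was not tested.

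**Figure D3:**
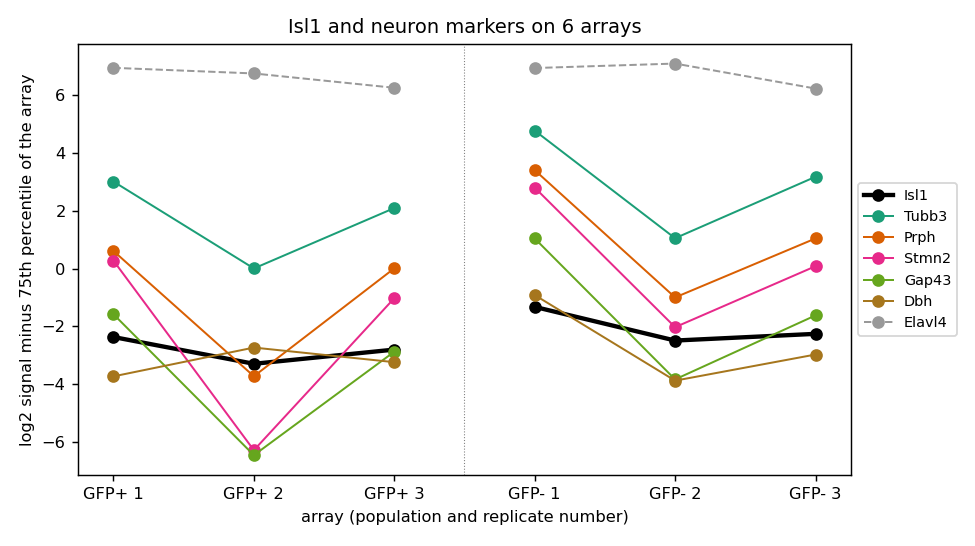
Log2 signal minus the 75th percentile of the array (vertical axis) on the 6 arrays (horizontal axis) for Isl1 (thick black line) and 6 neuron markers at their brightest probe, with lines joining the arrays of 1 population. Isl1, Tubb3, Prph, Stmn2 and Gap43 are highest in replicate 1 and lowest in replicate 2 of both populations. Elavl4 (dashed), with a T and G run in its probe, and Dbh are not.

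Isl2, which acts with Isl1 in motor neurons, did not follow Isl1. It was -1.60, -1.69 and -2.05 in LSC GFP+ and -2.61, -2.52 and -2.52 in LSC GFP-, and well above background on all 6 arrays. Every LSC GFP+ array exceeded every LSC GFP- array. The mean was -1.78 ± 0.23 (SD, n = 3) against -2.55 ± 0.05 (SD, n = 3), a difference of 0.77 (SE 0.14), or 1.70-fold, which was 0.43 with normexp correction. The genes most like it were Fzd9, a Wnt receptor, and Adamts17, Fam20c, Lbh and Abcc4, with r between 0.992 and 0.997. All 5 separated the populations with LSC GFP+ above, which a choice by likeness to Isl2 favours, since Isl2 separates them itself.

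Partners of the family were then compared between the populations with limma over all probes that passed the filter, at the brightest probe of each gene. Of 25545 genes tested, 3.39% were higher and 4.29% lower in LSC GFP+ at an unadjusted p under 0.05, and 0 were called after adjustment. Over all probes tested, the split was 1250 higher and 1675 lower, and it was 1471 and 1299 when arrays were scaled by their median, 1668 and 1606 after quantile normalization and 1579 and 1219 by the methods' t-test. The 3 lists were written with earlier results of these data known and are described by counts.

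Of 10 cofactors, 9 were tested, 2 were lower and 0 higher. The median difference was -0.03, beside -0.01 over all genes. Ldb2, an adaptor that bridges LIM-homeodomain proteins, was -5.28, -6.23 and -3.83 in LSC GFP+ and -1.44, -2.38 and -2.40 in LSC GFP-. Like Lmx1a, it was well above background only in replicate 3 of LSC GFP+ and on all LSC GFP- arrays. Its fitted difference was -3.04 (limma SE 0.57), or 8.23-fold, and includes 2 LSC GFP+ signals not above background. Leaving out 1 array at a time gave from 5.59-fold, without LSC GFP+ replicate 2, to 12.8-fold, without LSC GFP+ replicate 3. In limma the unadjusted p was 0.000771 and the adjusted p 0.133. The related adaptor Ldb1 was 3.45, 3.67 and 3.70 against 3.19, 3.31 and 3.41, a difference of 0.30 with an unadjusted p of 0.15 in limma, although the populations did not overlap.

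Lmo3, a LIM-only protein, was lower at its brightest probe (A_51_P118188), at -3.13, -1.90 and -2.04 against -0.86, -1.45 and -0.63, with an unadjusted p of 0.0061 and an adjusted p of 0.289 in limma. Its other probe (A_55_P2049811) gave a difference of 0.21 with overlap, so the probes disagree. The remaining cofactors Lmo2, Lmo4, Ssbp2, Ssbp3, Ssbp4 and Rlim had differences between -0.47 and 0.24. Lmo1 was not tested. The methods' t-test called Ldb1 and Ssbp2 as well, making 4, and when a probe had to be above background on all 6 arrays Ldb2 could not be tested and 1, Lmo3, was left.

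Of 15 genes that LMX1 factors act with, upstream or downstream, in midbrain, roof plate, limb and podocytes, 13 were tested, 2 were higher and 0 lower, with a median difference of -0.16. Foxa2, the forkhead factor of endoderm and floor plate, was 2.69, 2.87 and 2.47 in LSC GFP+ and 0.88, 0.34 and 0.12 in LSC GFP-. This difference of 2.23 (limma SE 0.25), or 4.70-fold, had an adjusted p of 0.0654 in limma. The second Foxa2 probe, differing by 2.69, had one of 0.0211. That probe was near background in LSC GFP-, at -4.20, -4.32 and -4.03, and well above it on 2 of those arrays. Over all probes, 0 passed adjustment with normexp correction, the intensity trend, the replicate block or the methods' t-test. With quantile or median scaling, 3 did. Nr4a2, the nuclear receptor of dopaminergic neurons and of the immediate response to stimulation, was 2.55, 1.91 and 1.89 against 1.37, 0.41 and 0.63, with an unadjusted p of 0.00299 and an adjusted p of 0.215 in limma. Both of its probes were higher, by 1.32 and 1.23.

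The other genes of the midbrain program differed less between the populations. Th, the enzyme that makes the precursor of dopamine, differed by -0.26 and its activator Pitx3 by -0.07, and the patterning genes Otx2, Wnt1 and Msx1 by -0.39, -0.09 and -0.02, none past the threshold in limma. En1 and Neurog2 were not above background on any array. The roof plate ligand Gdf7 differed by -0.16. Podocyte targets of Lmx1b differed by -0.61 for Col4a3 and -0.21 for Col4a4, and Wnt7a, the ectodermal signal upstream of Lmx1b in the limb, by -0.47. With the replicate number as a block 4 were called instead of 2, and the added ones, Msx2 at -0.39 and Wnt7a, were lower.

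Of 14 genes of urogenital development among which Lhx1 and Lhx9 act, 11 were tested, 5 were lower and 0 higher, beside 4.29% lower among all genes. The median difference was -0.50. Fgf10, a mesenchymal ligand for growing epithelial buds, was not well above background on any LSC GFP+ array (-5.90, -5.11 and -5.18) and was -2.20, -3.10 and -2.59 in LSC GFP-. With its LSC GFP+ signals raised to the dimmest signal well above background on each array, it was 3.45-fold lower in LSC GFP+. Some probes not well above background were brighter than that signal, so this is no strict bound. The limma fit of the unraised signals gave an adjusted p of 0.0654, but Fgf10 entered it through LSC GFP- only. When a probe had to be above background on all 6 arrays, Fgf10 could not be tested and 4 lower genes were left. Wt1, a factor of kidney and gonad mesenchyme, was -3.35, -3.70 and -3.49 against -1.16, -2.13 and -1.69, differing by -1.85, with an adjusted p of 0.0952 in limma.

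Pax8 and Emx2, which act with Lhx1 in the duct epithelium that gives rise to the kidney and seminal vesicle, were lower too. Pax8 was -2.47, -2.17 and -1.14 in LSC GFP+ and -0.66, -0.35 and 0.06 in LSC GFP-, which are -1.61 apart, with 0.196 as adjusted p in limma. Emx2 was -3.20, -1.58 and -0.96 against -0.77, -0.19 and 0.04, also -1.61 apart, with limma giving an adjusted p of 0.426, and -0.97 apart (1.95-fold in place of 3.05-fold) without LSC GFP+ replicate 1. In both populations these genes were lowest in replicate 1 and highest in replicate 3, as was the sum of the seminal vesicle markers. Pax2, their partner, was lower at its brightest probe by -1.10 and at its other probes by -0.98 and -0.74, each past an unadjusted p under 0.05 in limma and with an adjusted p of 0.315 for the brightest.

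Other genes of this list were closer between the populations. Bmp4 differed by -0.50, Wnt5a by -0.19, Wnt4 by -0.18, Gata3 by -0.16 and Nr5a1 by -0.04, none past the threshold in limma. Gata4, Hand2 and Tbx18 did not pass the filter. By the methods' t-test Emx2 was not called. The part of seminal vesicle cells in these differences, or of stromal and smooth muscle cells that the sort should remove, was not tested.

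**Figure D4:**
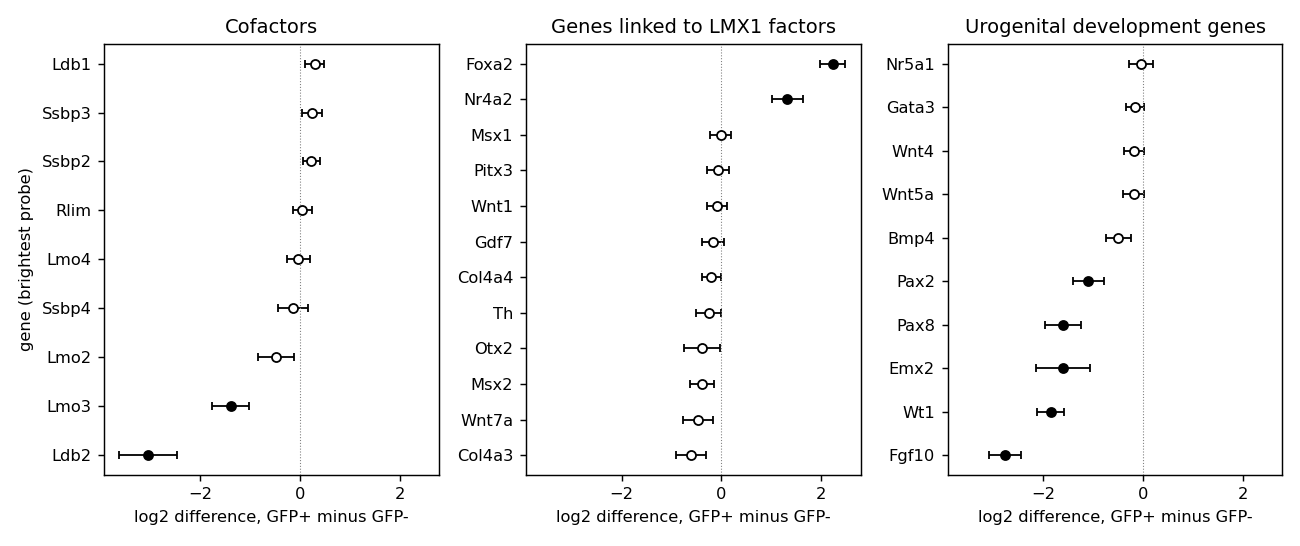
Log2 difference, LSC GFP+ minus LSC GFP- (horizontal axis), with the limma standard error as bars, at the brightest probe of tested genes of the cofactors, the genes linked to LMX1 factors and the urogenital development genes. Filled points passed an unadjusted p under 0.05. Foxa2 lies farthest to the right at 2.23. The points of Ldb2 and Fgf10, on the left, are fitted values that include signals not well above background on 2 and on all 3 LSC GFP+ arrays. Their size is therefore uncertain.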

How the data were processed

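RNA of 3 LSC GFP+ and 3 LSC GFP- samples was amplified, labeled with Cy3 and hybridized to Agilent SurePrint G3 mouse arrays of 1 slide, read in 1 scan. The deposited intensity values are on the linear scale. Per the file headers, Feature Extraction 11.0.1.1 subtracted a fitted background surface, removed a spatial trend and put surrogate values in place of dim spots, without normalization between arrays. The submitters' processing notes name version 10.7.3.1. Amplification and surrogate values both limit what a dim probe can show. The table of the whole series holds the same signals rounded to 3 significant digits.

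Of 55681 probes, 36656 to 42128 per array were well above background. No spot was saturated, and 123 to 154 outlier spots per array were left out. Log2 signals minus the array's 75th percentile were averaged over the spots of a probe and compared with lmFit and eBayes (limma 3.58.1, R 4.3.3, two-sided, Benjamini-Hochberg adjustment over the 37005 probes above background on each of the 3 arrays of 1 population or both). For a gene not above background in 1 population, a cautious fold change was set from the lowest signal well above background on each array. That signal is a working floor, since some probes not well above background were brighter. With 3 arrays per population an exact permutation test cannot reach p = 0.05, so the number of arrays limits the precision. Nothing in the labels says that the samples came from separate animals, so the spread may be technical in part. The fits were tested on simulated data.

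Samples with the same replicate number in their labels deviated together from the population means, with correlations across probes of 0.43, 0.28 and 0.67, and the numbers were taken to pair them. The unpaired fit is given, with the replicate block as an alternative. Other alternatives were background correction by normexp (offset 50), quantile and median scaling, rounded values, other filters, an intensity trend, outlier spots kept, the mean over a gene's probes, the methods' t-test, and each array left out in turn.

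The members and the gene lists were chosen with earlier results of these data known. Some genes are counted in the lists but not reported here by name. The genes named are the 10 members, Lhx3 and Lhx5, the members of the lists, the cell type markers and the 5 genes most like each member above background at its brightest probe, and those like the second Lhx6 probe were added after its values were seen. For endothelium, leukocytes, luminal epithelium, glia and neuroendocrine cells the summed marker levels overlapped between populations (5.55 to 6.47 against 5.80 to 6.53, 24.6 to 29.5 against 24.8 to 25.6, 119 to 180 against 143 to 206, 0.321 to 0.641 against 0.385 to 0.893, and 1.78 to 3.40 against 2.03 to 13.2). For the sorting markers Ly6a and Itga6 they were 16.4 to 22.1 against 15.8 to 21.3.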

Additional observations from a re-analysis of the deposited data

How the results depend on the processing

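With 3 arrays per population and many signals near background, small differences of the dim members could not be resolved. The Lmx1a difference, -3.16, kept its direction under every alternative run, between -3.62 and -1.36, the last with normexp correction. Leaving out 1 array at a time gave -3.62 to -2.79 for Lmx1a and 2077 to 4049 probes called. It gave 3 to 7 member probes without overlap, a count for which no share over all probes is given. With the replicate block 5480 probes were called in place of 2925, and 4 genes linked to LMX1 factors in place of 2. The count of cofactors, 2, was 1 with the filter on all 6 arrays and 4 by the methods' t-test. The count of urogenital genes lay between 4 and 6 under every alternative run. The difference changed sign under some alternatives for Lhx4, Lhx8, Lhx9, Lmx1b and the first Lhx6 probe. The ranges were, in this order, -0.36 to 0.29, -0.90 to 0.45, -0.38 to 0.51, -0.26 to 0.03 and -0.04 to 0.09. The 0.51 of Lhx9 is the mean over its probes. For Lhx6 that mean was -0.51, and the second probe, taken in place of the first, gave -1.74. The replicate block gave 3 cofactors, adding Lmo2, and 6 urogenital genes, adding Bmp4, moved the counts of neuron, glial, neuroendocrine and seminal vesicle markers as given in the text, and changed no other count of calls by over 1.5 times. Where no cause is given, the cause was not tested.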
